A study of Homo sapiens with 19 samples.

Results

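The unfolded protein response and the amino acid stress response are represented here by 39 named human genes, chosen as endoplasmic reticulum (ER) chaperones, ER stress sensors, ATF4 targets and amino acid transporters, and measured in 19 arrays of MDA-MB-231 breast cancer cells. A member was any gene of this list with a probe set that the platform annotation gives to that gene alone, and all 39 had one, out of 11963 named genes on the array. The members carried 63 such probe sets. Signals could be derived on all arrays for 62 of these, 61 of the 62 passed the filter on dim probe sets, and all 39 members were among the 9550 genes tested. For this account they were ordered by role into 6 sensors and transcription factors, 11 ER chaperones and folding enzymes, 3 genes of ER-associated degradation, 8 stress effectors and ATF4 targets, 6 enzymes of amino acid synthesis and 5 amino acid transporters.

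MDA-MB-231 is an established, mesenchymal-like human breast cancer line, and every array came from that line or a subline of it, cultured in serum-containing medium with selective drugs that the labels do not name and harvested before confluence. The hyper-ploid sublines of 1833 and 4175 (2 arrays) were set against the modal-ploid sublines of the same parents (2 arrays). The strongly bone-metastatic lines 1833, 2274, 2268 and 2269 were set against the weakly bone-metastatic lines 2293, 2295 and 2296, the last of which also carries the name 2297 in other labels. The strongly lung-metastatic lines 4142, 4173, 4175 and 4180 were set against the weakly metastatic lines of that organ, SCP21, SCP6 and SCP26, and the parental MDA-MB-231 was measured on 1 array. Each line had 1 array of RNA from cells in culture, so the spread within a group is between sublines and no line has a replicate of its own. The study's title asks about ploidy doubling and metastasis.

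When unfolded proteins build up in the ER, the sensors PERK (EIF2AK3), IRE1 (ERN1) and ATF6 are activated. ATF6 and the spliced form of XBP1 switch on ER chaperones and degradation genes, whereas PERK slows translation and raises ATF4 protein. Lack of amino acids also raises ATF4, through another kinase, and ATF4 in turn drives genes for amino acid synthesis and uptake, so that many ATF4 targets are shared by both forms of stress. Much of this signalling acts on protein, translation and splicing, which these arrays do not measure.

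Values are given as signals, that is, scanner intensities derived from the deposited ratios and scaled so that every array had the same median, and differences are log2(signal + 16), the strong, hyper-ploid or derived line minus its counterpart. The 40th percentile of an array, used as the limit for a dim signal, lay between 66.8 and 87.6 after scaling. VIM, CD44, EGFR and KRT18, which mark these cells, were above it on all 19 arrays. Of the genes listed as low in this line, PGR was above it on 0 arrays and CDH1 on 1, but ESR1 on 16 and EPCAM and ERBB2 on 19. Among markers of other cell types PTPRC, CDH5, VWF and LUM were above the limit on 0 arrays and PDGFRB on 1, whereas CD3E, CD14, ITGAM, PECAM1 and DCN were above it on 13 to 19. The arrays were taken as 2 sets, within which ratios were compared. The first held the parental line, the bone lines and the 1833 ploidy pair (10 arrays), and the second the lung lines and the 4175 ploidy pair (9 arrays). How the ratios of either set were made is not given in the labels or headers used here. Hybridisation controls differed between groups of arrays. The mean log2 spike-in signal was 9.891 to 10.69 in the lung lines, 11.09 to 11.37 in the parental and bone lines, and 9.246 to 9.601 in the ploidy sublines of both sets. An 18S ribosomal RNA probe set read 4237 to 9076 in 6 of the 7 lung lines, but 196.9 in SCP6, 49.9 to 236.8 in the parental and bone lines and 12.6 to 130.5 in the ploidy sublines. Values without SCP6 therefore stand beside those of the members described in the lung lines. Less RNA per cell and fewer cells of a kind cannot be told apart in such bulk samples.

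The stretches before the start sites of 5 members are shown. HSP90B1, CANX, PDIA6 and HYOU1 are the 4 chaperone genes called between the bone lines below, and the ASNS promoter is a well-studied target of ATF4. RefSeq promoter windows (GRCh38.p14, 250 bases before to 50 after a start) were available for 34 of the 39 members, in 53 windows, and were searched on both strands. The ER stress element, CCAAT and CCACG separated by 9 bases, is the site through which ATF6 is known to act. The unfolded protein response element was searched as TGACGTGG and the core of the C/EBP-ATF site as TGATGNAA. Capitals mark the matches in the 250 bases before the start, written 5′ to 3′ on the gene's strand.
HSP90B1, chr12:103930160-103930409, + strand: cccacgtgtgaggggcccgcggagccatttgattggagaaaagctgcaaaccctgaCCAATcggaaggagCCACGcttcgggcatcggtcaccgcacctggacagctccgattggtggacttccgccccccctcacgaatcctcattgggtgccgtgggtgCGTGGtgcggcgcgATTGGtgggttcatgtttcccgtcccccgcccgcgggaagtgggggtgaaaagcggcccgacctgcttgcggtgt
CANX, chr5:179698679-179698928, + strand: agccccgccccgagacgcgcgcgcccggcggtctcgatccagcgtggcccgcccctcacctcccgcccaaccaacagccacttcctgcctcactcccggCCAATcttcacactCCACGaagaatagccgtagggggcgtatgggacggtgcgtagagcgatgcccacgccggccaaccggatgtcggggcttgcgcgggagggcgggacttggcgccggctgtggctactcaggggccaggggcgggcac
PDIA6, chr2:10812786-10813035, - strand: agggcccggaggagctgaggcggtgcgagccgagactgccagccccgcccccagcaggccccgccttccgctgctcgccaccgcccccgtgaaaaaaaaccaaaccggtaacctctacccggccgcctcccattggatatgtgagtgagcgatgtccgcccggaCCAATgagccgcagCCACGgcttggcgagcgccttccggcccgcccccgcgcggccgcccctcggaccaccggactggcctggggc
HYOU1, chr11:119057206-119057455, - strand: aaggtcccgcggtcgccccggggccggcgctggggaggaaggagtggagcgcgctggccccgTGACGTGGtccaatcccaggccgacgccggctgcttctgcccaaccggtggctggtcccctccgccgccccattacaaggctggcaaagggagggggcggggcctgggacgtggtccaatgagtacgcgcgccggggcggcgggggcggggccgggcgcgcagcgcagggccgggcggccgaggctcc
ASNS, chr7:97872409-97872658, - strand: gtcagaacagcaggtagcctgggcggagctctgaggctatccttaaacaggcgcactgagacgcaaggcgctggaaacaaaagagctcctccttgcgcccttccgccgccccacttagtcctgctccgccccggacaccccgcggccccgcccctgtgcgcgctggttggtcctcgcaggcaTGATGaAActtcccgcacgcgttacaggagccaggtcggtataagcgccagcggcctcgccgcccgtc
HSP90B1 held the ER stress element in both orientations, starting 194 and 89 bases before the start site. In the other stretches the match began 151 bases (CANX), 86 bases (PDIA6), 188 bases (HYOU1) and 68 bases (ASNS) before it. Among members the ER stress element was found in 8 of 53 windows, of the 6 genes CALR, CANX, HSP90B1, HSPA5, PDIA6 and XBP1, and in 0.0769% of all 35116 windows. By gene this was 6 of 34 members and 0.0916% of 27305 genes, and 3 of the 8 windows are overlapping ones of CANX with the same site. Of these 6 genes, HSPA5, CALR and XBP1 were not called between the bone lines. TGACGTGG was found in HYOU1 alone among members, and in 0.729% of all windows. TGATGNAA was found in 7 members (ASNS, CEBPG, CREB3L2, HERPUD1, SLC1A4, SLC1A5 and SLC3A2), and in 3.62% of all windows. The letters say nothing of binding in these cells.

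Strong bone-metastatic lines had more transcript of the amino acid transporters SLC7A5, SLC7A11 and SLC3A2, of the serine synthesis enzyme PHGDH, of the ER chaperones HSP90B1, HYOU1, PDIA6 and CANX, and of the stress effector PPP1R15A than weak bone-metastatic lines. These 9 of 39 members rose and 0 fell in limma's test at an adjusted p under 0.05, with p-values adjusted over all 9550 genes. Of all genes tested, 6.84% were higher and 4.83% were lower by the same rule. The median log2 difference was 0.355 over the members and 0.0108 over all genes, and 25 members were positive and 14 negative. By limma 16 of the 39 had an unadjusted p under 0.05, as had 2559 of all 9550 genes. With quantile normalization the split was 7 higher and 1 lower, and with trimmed-mean scaling 10 higher and 1 lower. The member lower in both was PDIA4. Over all genes quantile normalization called 727 higher and 737 lower, and trimmed-mean scaling 718 and 803, against 653 and 461 in the fit reported.

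All 5 amino acid transporters were positive between the bone lines and 3 of them passed the test. SLC7A5 (LAT1) imports large neutral amino acids such as leucine as a heterodimer with SLC3A2. Its signal was 5420.5, 4928.5, 4836 and 2745 in the strong lines 1833, 2274, 2268 and 2269, against 734, 779 and 713 in the weak lines 2293, 2295 and 2296. The groups did not overlap, with line 2269 lowest among the strong lines, and the parental line, at 3264, lay inside the range of the strong lines. The means on the log2 scale were 12.09 ± 0.44 and 9.57 ± 0.06 (SD, n = 4 and 3), a difference of 2.52 (SE 0.30, limma adjusted p = 0.000217), and the deposited ratios gave a 5.85-fold difference.

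SLC3A2 (CD98 heavy chain) carries SLC7A5 and SLC7A11 to the cell surface. It read 2777, 2042, 2039.8 and 1249 in the strong bone lines (1833, 2274, 2268, 2269), against 810.2, 951 and 797 in the weak lines (2293, 2295, 2296). As for SLC7A5, line 1833 was highest, line 2269 was lowest among the strong lines and the groups did not overlap. The difference was 1.18 (SE 0.26, limma adjusted p = 0.0116), or 2.29-fold by the ratios. SLC7A11 (xCT), the cystine and glutamate exchanger, read 955, 389, 818 and 430.2 in the strong lines, against 113, 168 and 205 in the weak lines. Lines 1833 and 2268 stood above 2274 and 2269, all 4 stood above the weak lines, and the parental line, at 336, lay between the groups. The difference was 1.83 (SE 0.38, limma adjusted p = 0.00842), or 3.82-fold by the ratios, and its other probe sets gave 1.57 and 1.91. SLC1A4 and SLC1A5, sodium-dependent exchangers of neutral amino acids, had differences of 0.66 (adjusted p = 0.124) and 0.40 (adjusted p = 0.412) by limma.

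**Figure D1:**
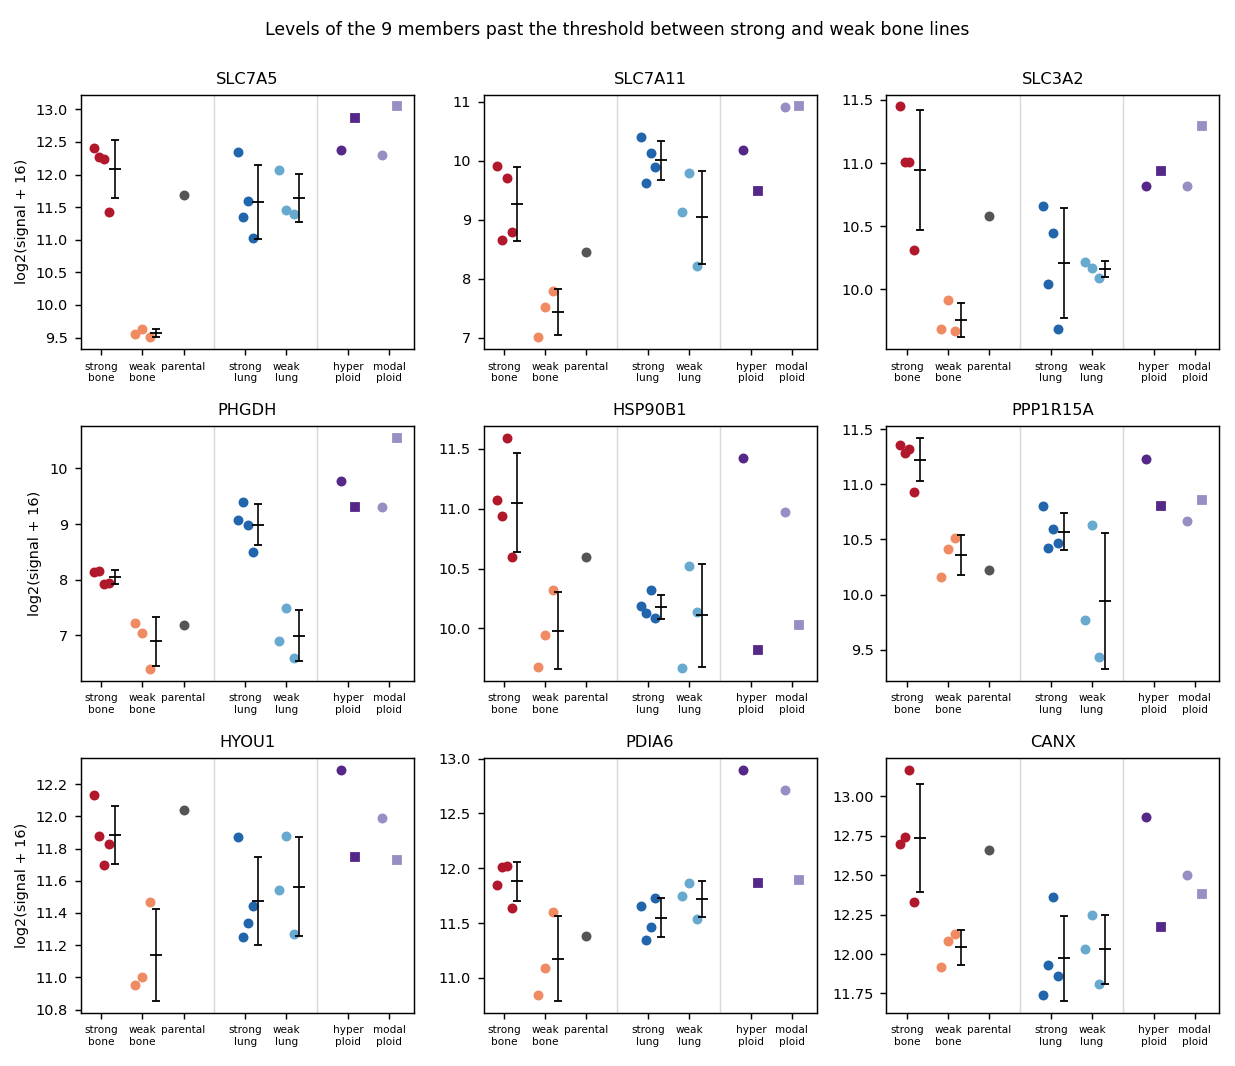
Level of the 9 members called higher in strong bone lines, as log2(signal + 16) on the y axis, with 1 point per array and groups along the x axis (strong bone, weak bone, parental; strong lung, weak lung; hyper-ploid, modal-ploid). Black bars are the mean and SD of groups of 3 or 4 lines; among ploidy sublines circles are of 1833 and squares of 4175. In each panel the 4 strong bone lines lie above the 3 weak ones, while in the lung lines only PHGDH shows groups that do not overlap.

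Of the 6 enzymes of amino acid synthesis, PHGDH, the first enzyme of serine synthesis from a glycolytic intermediate, passed the test. It read 267, 269.9, 227 and 231 in the strong bone lines (1833, 2274, 2268, 2269), against 134, 116.5 and 68.1 in the weak lines (2293, 2295, 2296), where the last value was at or below the dim limit of its array. The strong lines lay close together and above every weak line, and the parental line, at 130.4, lay among the weak lines. The difference was 1.15 (SE 0.26, limma adjusted p = 0.0129), and 0.0669 was the adjusted p without line 2296. PSAT1 and PSPH, the next enzymes of the same pathway, had differences of 0.92 (SE 0.45, adjusted p = 0.204) and -0.54 (SE 0.24, adjusted p = 0.166). MTHFD2, a mitochondrial folate enzyme, differed by 0.63 (adjusted p = 0.0772), SHMT2, which makes glycine from serine in mitochondria, by -0.07 (adjusted p = 0.921) and ASNS, which makes asparagine, by 0.42 (adjusted p = 0.686). ASNS ranged from 402 to 1708 in the strong lines and from 319 to 782 in the weak lines, with line 1833 highest, so its spread within a group exceeded the difference between groups.

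Among the 11 ER chaperones and folding enzymes 4 rose, 0 fell and 8 were positive. HSP90B1 (GRP94), the ER form of HSP90, read 2133, 1946, 3075 and 1535 in the strong bone lines (1833, 2274, 2268, 2269), against 804, 971 and 1266 in the weak lines (2293, 2295, 2296), with a difference of 1.07 (SE 0.25, limma adjusted p = 0.0149). HYOU1 (GRP170), which helps HSPA5 exchange nucleotide, read 4453, 3766, 3302 and 3627, against 1964, 2028 and 2823, with a difference of 0.74 (SE 0.21, adjusted p = 0.0338). Both genes had strong and weak lines that did not overlap, and in both line 2296 was the highest of the weak lines. The parental line read 1535 for HSP90B1, level with the lowest strong line, and 4185 for HYOU1, above 3 of the 4 strong lines.

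PDIA6, a protein disulfide isomerase, read 3675, 4099, 4137 and 3179 in the strong bone lines (1833, 2274, 2268, 2269), against 1812, 2163 and 3082 in the weak lines (2293, 2295, 2296). The lowest strong line exceeded line 2296 by little, and the difference was 0.71 (SE 0.20, limma adjusted p = 0.0320), with 0.74 to 0.85 from its other 3 probe sets. CANX (calnexin), which holds newly made glycoproteins in the ER, read 6628, 6845, 9183 and 5134, against 3870.3, 4305 and 4477, a difference of 0.69 (SE 0.21, adjusted p = 0.0489). Another CANX probe set gave 1.001. The third and brightest CANX probe set had signals of 10211 to 13834 in the bone lines against 3307 to 8718 for the other 2, could not be derived in the lung set, and gave 0.282 from the deposited ratios, with 1.051 to 1.149 in the strong and 0.875 to 0.920 in the weak lines.

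HSPA5 (BiP), the main ER chaperone and the usual readout of the unfolded protein response, read 9506, 8003, 7848 and 5721 in the strong bone lines and 3577, 3664 and 5881 in the weak lines. Line 2296 lay above the strong line 2269, so the groups overlapped, and the difference of 0.84 (SE 0.27) missed the threshold (limma adjusted p = 0.057). PDIA4 had the opposite sign, with 1557, 1542, 1391 and 1089 in the strong lines, against 2526, 2294 and 2213 in the weak lines. No strong line reached a weak one, and the difference was -0.75 (SE 0.23, adjusted p = 0.0522). The other PDIA4 probe set gave -0.16 (adjusted p = 0.693 over all kept probe sets). CALR and the PDIA3, DNAJB9, DNAJC3 and SDF2L1 genes had differences between -0.24 and 0.53 with adjusted p of 0.282 or more.

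Stress effectors and ATF4 targets included 1 member that rose. PPP1R15A (GADD34), which helps dephosphorylate eIF2α and so restores translation, read 2608, 2472, 2545 and 1937 in the strong bone lines (1833, 2274, 2268, 2269), against 1124, 1343 and 1447 in the weak lines (2293, 2295, 2296). The groups did not overlap and the parental line, at 1173, lay among the weak lines. The difference was 0.86 (SE 0.24, limma adjusted p = 0.0339), with 1.42 from its other probe set. TRIB3, a pseudokinase induced by ATF4, read 1365, 981, 919.7 and 646 in the strong lines, against 474, 576 and 585 in the weak lines. The lines did not overlap, and the difference was 0.78 (SE 0.33, adjusted p = 0.146). DDIT3 (CHOP), a transcription factor of lasting ER stress, differed by -0.0048 (SE 0.17, adjusted p = 0.989). CEBPB, CEBPG, VLDLR, STC2 and NUPR1 had differences between -0.52 and 0.28, none past the threshold, and STC2 was dim on all 7 bone arrays.

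The sensors and transcription factors gave 0 calls between the bone lines, with 0 of 6 at an unadjusted p under 0.05. ATF4 differed by 0.13 (SE 0.22), XBP1 by -0.02 (SE 0.20), ERN1 by 0.03 (SE 0.23), EIF2AK3 by 0.37 (SE 0.23), CREB3L2 by -0.04 (SE 0.17) and ATF6 by -0.22 (SE 0.51). The 3 genes of ER-associated degradation, SEL1L, HERPUD1 and EDEM1, differed by -0.31, 0.45 and -0.48 (adjusted p of 0.148 to 0.201). The SEL1L probe sets disagreed in sign here, the other 3 giving 0.60, 0.52 and -0.0038. The calls varied with the setting and the lines used, as did the calls over all genes. SLC7A5, SLC7A11 and SLC3A2 passed in all 18 alternatives tried, PHGDH in 17, HSP90B1 in 15, HYOU1 in 13, PPP1R15A in 12, PDIA6 in 10 and CANX in 6. Without 2293 or without 2295 the calls were SLC7A5, SLC7A11, SLC3A2 and PHGDH (4 of 39), without 1833 or without 2274 these 4 and HSP90B1 (5), and without 2269 there were 11. Over all 9550 genes the calls higher numbered 361 without 2293, 339 without 2295, 434 without 1833, 421 without 2274 and 828 without 2269, against 653 with all lines.

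**Figure D2:**
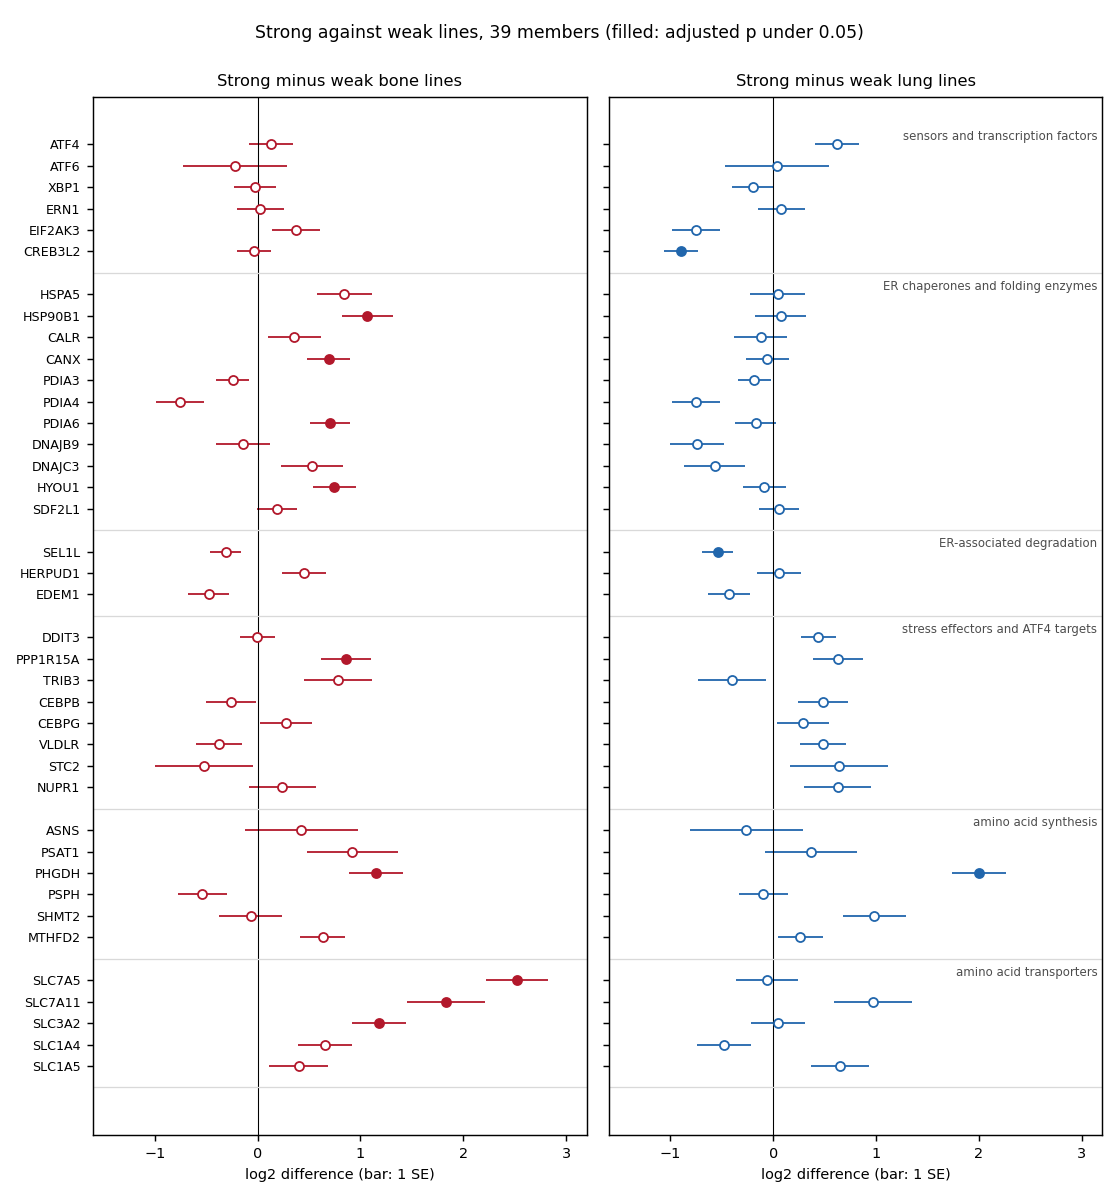
Log2 difference of each of the 39 members between strong and weak bone lines (left, red) and between strong and weak lung lines (right, blue), with bars of 1 SE from limma, grouped by role down the page. Filled points passed an adjusted p of 0.05: 9 to the right of 0 in bone, and 1 to the right and 2 to the left of 0 in lung.

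Between the lung lines, PHGDH was higher in the strong lines while CREB3L2, an ER-bound transcription factor related to ATF6, and SEL1L, the scaffold of an ER degradation complex, were lower. Of the 39 members 1 rose and 2 fell by limma at an adjusted p under 0.05, against 3.4% of all genes higher and 5.54% lower. An unadjusted p under 0.05 was found by limma for 13 members and for 2204 of all 9550 genes. The median log2 difference was 0.0431 over the members and -0.0106 over all genes. With quantile normalization 5 members were higher and 3 lower, and with trimmed-mean scaling 4 higher and 3 lower. Over all genes quantile normalization called 575 higher and 601 lower, and trimmed-mean scaling 528 and 578, against 325 and 529 in the fit reported.

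PHGDH read 524, 662, 491 and 348 in the strong lung lines 4142, 4173, 4175 and 4180, against 104, 165 and 80.1 in the weak lines SCP21, SCP6 and SCP26. Every strong line was above every weak line, where SCP26 was dim. The difference was 1.996 (SE 0.26, limma adjusted p = 0.000496), or 4.44-fold by the ratios, and 2.25 without SCP6 (adjusted p = 0.000471). PHGDH passed in all 18 alternatives, and in the fit reported it was the only member called higher in both organs. With quantile normalization PPP1R15A and SLC7A11 were also called higher in both, and with trimmed-mean scaling PPP1R15A was. SHMT2, further along the path from serine to glycine, read 5475, 4506, 4557 and 4047 in the strong lines and 2984, 3604 and 1169 in the weak lines. Its groups did not overlap, and the difference was 0.98 (SE 0.31, adjusted p = 0.0639; 1.30, adjusted p = 0.0239, without SCP6; 0.49, adjusted p = 0.157, without SCP26). PSAT1 and PSPH, which lie between these enzymes, differed by 0.37 and -0.10 (adjusted p = 0.674 and 0.850).

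CREB3L2 read 637, 527, 669 and 636 in the strong lung lines (4142, 4173, 4175, 4180), against 1119, 1409 and 985 in the weak lines (SCP21, SCP6, SCP26). The groups did not overlap, and the difference of -0.90 (SE 0.17, limma adjusted p = 0.00457; -0.76, adjusted p = 0.0195, without SCP6) passed in all 18 alternatives. SEL1L read 926, 1087, 1052 and 999 in the strong lines, against 1308, 1704 and 1454 in the weak lines. These groups did not overlap either, and the difference was -0.54 (SE 0.15, adjusted p = 0.0386), but the other SEL1L probe sets gave -0.15 to -0.30. SEL1L lost its call in 10 of 18 alternatives, among them leaving out SCP6 (-0.44, adjusted p = 0.119), SCP26 or any strong lung line, with an adjusted p of up to 0.784.

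Other members with wide differences between the lung lines did not pass. SLC7A11 read 1339.7, 770.3, 1103 and 942 in the strong lines (4142, 4173, 4175, 4180), against 545, 869 and 282 in the weak lines (SCP21, SCP6, SCP26), a difference of 0.97 (SE 0.38, limma adjusted p = 0.141). It was 1.34 without SCP6 (adjusted p = 0.0582) and 0.55 without SCP26 (adjusted p = 0.383). EIF2AK3 (PERK) read 177, 156, 162 and 161, against 207, 235 and 481, a difference of -0.75 (SE 0.23, adjusted p = 0.0597). It was -0.89 without SCP6 (adjusted p = 0.0560) and -0.39 without SCP26 (adjusted p = 0.143). Weak line SCP26 stood apart from the other two weak lines here, as it did for the low ends of SHMT2 and SLC7A11. PDIA4 differed by -0.75 (SE 0.23, adjusted p = 0.0639; -0.44, adjusted p = 0.231, without SCP6), with -0.41 from its other probe set. DNAJB9, an ER co-chaperone, differed by -0.74 (SE 0.26, adjusted p = 0.104; -0.65 without SCP6 and -0.41 without SCP26). Without SCP21 the lower calls numbered 5, with DNAJB9, EIF2AK3 and PDIA4 added. Over all genes the lower calls were then 509, against 529 with all lines. ATF4 was higher in all 4 strong lines (4079.6 to 4629.8) than in the weak lines (1968 to 3575), at a difference of 0.62 (SE 0.22, adjusted p = 0.0999; 0.80, adjusted p = 0.0552, without SCP6; 0.37 without SCP26). PPP1R15A and CEBPB differed by 0.63 (adjusted p = 0.133) and 0.48 (adjusted p = 0.260). Both were called higher without SCP6, at 0.97 (adjusted p = 0.0104) and 0.81 (adjusted p = 0.0347).

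Whether the strong-against-weak differences themselves differed between the organs was tested next. The strong-minus-weak difference of SLC7A5 was -0.06 (SE 0.30) in lung and 2.52 in bone, so that lung minus bone was -2.58 (SE 0.43, limma adjusted p = 0.00175), which passed in all 24 alternatives. Of the 39 members 3 were called, all lower in lung, against 11.8% of all genes called in either direction (460 of 9550 higher and 665 lower in lung). With quantile normalization or trimmed-mean scaling 5 were called, 2 lower (SLC7A5 and CREB3L2) and 3 higher in lung (CEBPB, SHMT2 and VLDLR). Over all genes quantile normalization called 739 higher and 702 lower in lung, and trimmed-mean scaling 704 and 671. CREB3L2 differed by -0.86 (SE 0.24, adjusted p = 0.0318), with -0.90 in lung and -0.04 in bone, and EIF2AK3 by -1.12 (SE 0.33, adjusted p = 0.0398), with -0.75 in lung and 0.37 in bone. CREB3L2 lost the call in 10 of 24 alternatives and EIF2AK3 in 12. The CREB3L2 call was lost without 2293, 2295, 2296, 1833, 2274, 2268, SCP6, 4173 or 4180, among others. The EIF2AK3 call was lost without 2293, 2295, 2296, 2274, 2268 or any strong lung line.

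For the remaining members of largest difference between organs, TRIB3 had -1.19 (adjusted p = 0.120), SLC3A2 -1.13 (adjusted p = 0.0644), SLC1A4 -1.13 (adjusted p = 0.0642), DNAJC3 -1.10 (adjusted p = 0.113) and STC2 1.16 (adjusted p = 0.297). DNAJC3 was at or below the dim limit in 3 strong lung lines and 1 weak lung line. TRIB3 passed without strong lung line 4142 (-1.51, adjusted p = 0.0204). PDIA6 had -0.88 (adjusted p = 0.0546) from the probe set used, whereas its other 3 gave -1.24, -1.50 and -1.36, all past the threshold over all kept probe sets. HSP90B1 had -0.99 (adjusted p = 0.0863), and its other probe set gave -1.01 (adjusted p = 0.0174). PHGDH, called in each organ, had 0.84 (SE 0.37, adjusted p = 0.164), so the difference between organs did not pass. The 2 organs were measured in different array sets, and the spike-in controls of the lung and bone lines, and 18S in all lung lines but SCP6, differed as given above; their part in these values was not tested. SLC7A5 signals in the weak lung lines were 4270.3, 2799 and 2677, several times those of the weak bone lines, and close to the strong lung lines at 5206, 2598, 3088 and 2065. The scaling of levels between the sets rests on the derived signals, whereas each strong-minus-weak difference stays within a set.

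**Figure D3:**
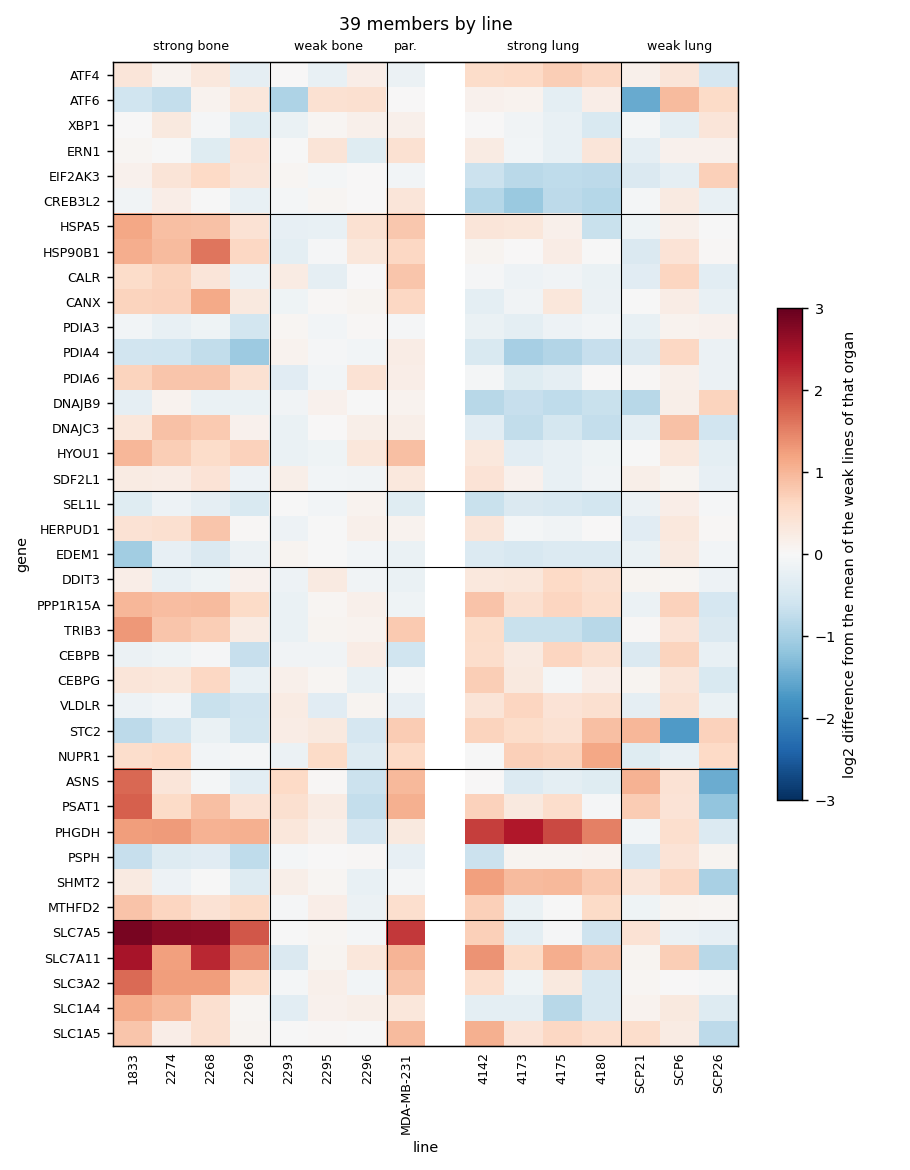
Each of the 39 members (rows, by role) in each line (columns), coloured by its log2 difference from the mean of the weak lines of the same organ, red above and blue below; the parental line is set against the weak bone lines. SLC7A5, SLC7A11 and SLC3A2 are red in the 4 strong bone lines, and PHGDH is red in the strong lines of both organs.

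The parental line was not uniformly like either bone class. For 6 of the 9 called members it was nearer to the mean of the strong lines and for 3 (PHGDH, PPP1R15A and PDIA6) nearer to that of the weak lines. Parental minus weak bone lines was 2.11 for SLC7A5, 1.02 for SLC7A11 and 0.82 for SLC3A2, whereas parental minus strong bone lines was -0.41, -0.82 and -0.36. A single parental array allows no test of these values.

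Correlations between members from line to line within groups were described by role. With group means removed over the 14 strong and weak lines, the median Pearson correlation was 0.54 over 10 pairs of transporters, 0.38 over 55 pairs of chaperones and 0.24 over all 741 pairs of members. It was 0.13 over the 15 pairs of amino acid synthesis enzymes, 0.00 over the 28 pairs of effectors and -0.06 over the 15 pairs of sensors and factors. The closest pairs were ASNS with PSAT1 (r = 0.94), DNAJC3 with PPP1R15A (0.93), SDF2L1 with CEBPG (0.92) and PSAT1 with SHMT2 (0.90), and SLC7A5 and SLC3A2, the subunits of one transporter, had 0.88. All pairs share the same 14 arrays and their scaling, so these are descriptions. Correlations among other genes were not computed, so whether these values are unusual was not tested. DNAJC3 was at or below the dim limit on 4 of these arrays.

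In the ploidy pairs 0 of 39 members passed limma's test with line of origin as a block, against 0.0105% of all genes (1 of 9550). An unadjusted p under 0.05 was found for 3 members and for 497 of all 9550 genes. The fit had 1 residual degree of freedom. Set by set, hyper-ploid over modal-ploid was more than 2-fold higher for 1 member in the 1833 pair (1.62% of 9550 genes) and for 0 among the 4175 sublines (2.12%). It was more than 2-fold lower for 1 member in the 1833 pair (1.49% of 9550 genes) and for 6 among the 4175 sublines (2.91%). Each of these is a single array against a single array.

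ATF6, the membrane-bound sensor that is cut to a transcription factor, read 97.8 and 90.4 in the hyper-ploid sublines of 1833 and 4175, against 226 and 276 in the modal-ploid sublines. The dim limits of the hyper-ploid arrays were 73.1 and 78.3, so both ATF6 values there lay near them. ATF6 was lower in both hyper-ploid sublines, with log2 differences of -1.09 and -1.46, a mean of -1.27 and an adjusted p of 0.286 by limma. The other ATF6 probe set gave a mean of -0.36. SLC7A11 read 1141 and 702, against 1906 and 1939, with differences of -0.73 and -1.45 (mean -1.09, adjusted p = 0.354), and its other probe sets gave means of -0.92 and -0.21. With the stricter filter on dim genes both passed limma's test, with adjusted p of 0.00615 for ATF6 and 0.0366 for SLC7A11, and of 6276 genes 2 were then higher and 24 lower. The prior degrees of freedom were infinite in that fit, so all genes shared 1 spread and these p-values do not measure each gene's own. VLDLR, a lipoprotein receptor listed as an ATF4 target, had -0.51 and -0.97, ASNS -0.01 and -0.73, SLC3A2 -0.0040 and -0.35, and CALR -0.05 and -0.20.

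Of the members positive in both pairs, none had a mean as far from 0 as ATF6, SLC7A11 or VLDLR. STC2, a secreted glycoprotein, had log2 differences of 0.78 in the 1833 pair and 0.35 in the 4175 pair, DNAJB9 0.37 and 0.55, DNAJC3 0.39 and 0.29, HYOU1 0.30 and 0.02, PDIA3 0.10 and 0.10, and PDIA4 0.10 and 0.05. The sign was the same in both pairs for 13 members, 7 lower and 6 higher, whereas 19 were higher in the 1833 pair and lower in the 4175 pair. Over all genes 22.5% were lower in both, 24.3% higher in both, and 33.1% higher in the 1833 pair and lower in the 4175 pair.

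The pairs differed most for NUPR1, a small chromatin protein of the stress response, which read 244 and 589 in the hyper-ploid sublines of 1833 and 4175, against 94.3 and 1492 in the modal-ploid ones. Its differences were 1.24 in the 1833 pair and -1.32 in the 4175 pair. PHGDH had 0.46 and -1.24, SLC1A4 0.05 and -1.20, and MTHFD2 0.13 and -1.08. By role, all 6 amino acid synthesis enzymes and all 5 transporters were negative in the 4175 pair, with medians of -0.76 and -0.463, while their medians in the 1833 pair were 0.173 and 0.0501. Over all genes the medians of the 4175 and 1833 pairs were -0.0608 and 0.0579.

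**Figure D4:**
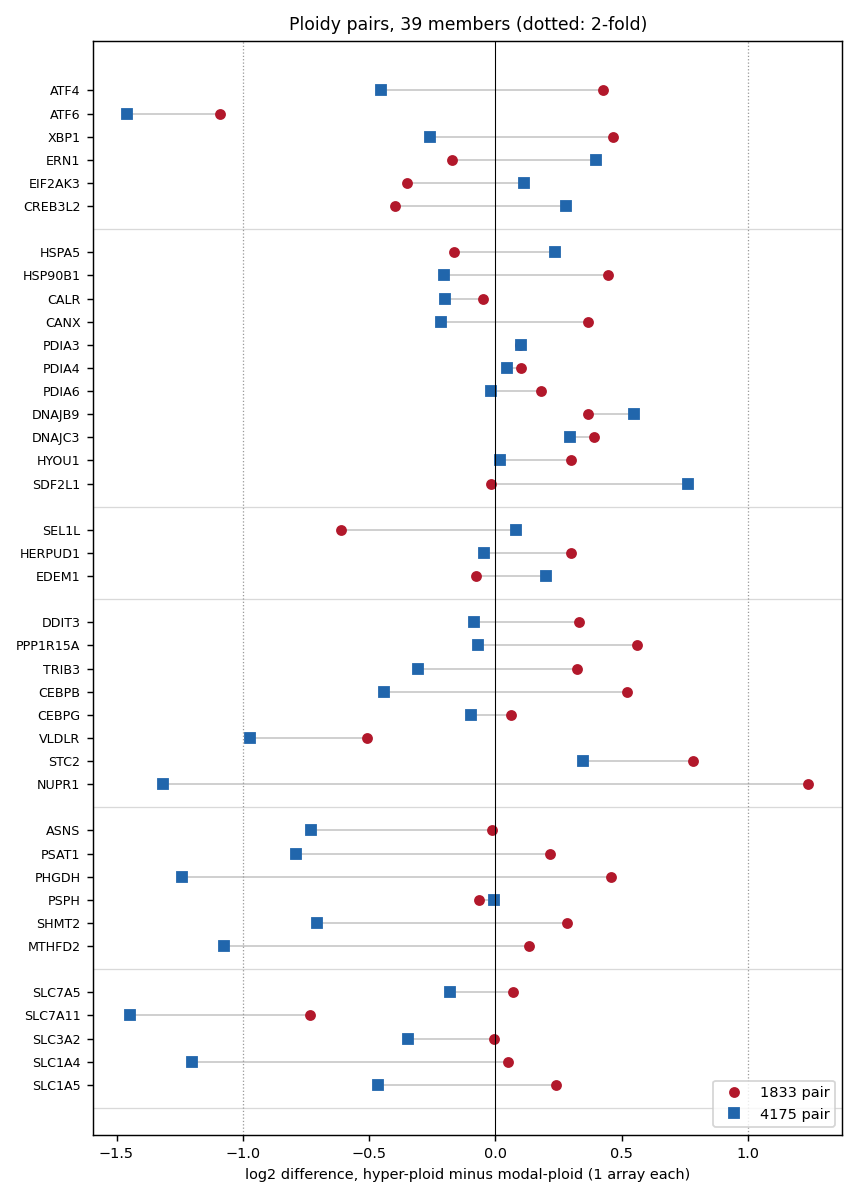
Log2 difference of each of the 39 members, hyper-ploid minus modal-ploid, in the 1833 pair (red circles) and the 4175 pair (blue squares), with 1 array per subline and dotted lines at 2-fold. ATF6 and SLC7A11 lie left of 0 in both pairs, and the amino acid synthesis genes and transporters lie further left in the 4175 pair than in the 1833 pair, except for PSPH.

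Other genes of these pathways, taken from a list that was chosen with earlier results of these data known, were read beside the members. Of 42 further amino acid response genes 31 were tested. Between the bone lines 5 were higher and 0 lower, against 6.84% and 4.83% of all genes, and the median difference was 0.207. By limma 8 of the 31 had an unadjusted p under 0.05, against 2559 of all 9550 genes. The 5 called higher were CTH, which makes cysteine (2.09), GADD45A (1.91), the tRNA synthetases NARS1 (1.17) and SARS1 (0.83), and the glutamine transporter SLC38A2 (0.75). Their limma adjusted p was 0.000121 to 0.0293. Between the lung lines 0 were higher and 2 were lower by limma, DDIT4 (-1.12, adjusted p = 0.0185) and NARS1 (-0.79, adjusted p = 0.0126). Of all genes 3.4% were higher and 5.54% lower there.

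Of 61 further genes of the unfolded protein response 50 were tested, and 5 were higher and 4 lower between the bone lines, with a median of 0.108. Of all genes 6.84% were higher and 4.83% lower. By limma 21 of the 50 had an unadjusted p under 0.05 between the bone lines, against 2559 of all 9550 genes. GFPT1 (1.42), the first enzyme of hexosamine synthesis, DERL1 (1.16), SRPRB (1.10), WIPI1 (0.67) and CKAP4 (0.59) were higher, and FKBP11 (-1.32), MAP3K5 (-1.07), CREB3L1 (-0.74) and CALU (-0.66) were lower. Between the lung lines FKBP11 (1.42) and WFS1 (1.30) were higher, and UGGT1 (-0.88) and CKAP4 (-0.77) were lower. These 2 higher and 2 lower of 50 stand beside 3.4% and 5.54% of all genes. In the ploidy pairs 0 genes of either list passed. By limma 1 of 50 and 1 of 31 had an unadjusted p under 0.05, against 497 of all 9550 genes.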

How the data were processed

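RNA from cultured lines was labelled with biotin by the Affymetrix protocol, per the labels' protocols. The authors deposited linear ratios for 22283 probe sets. How these ratios were made is not given in the labels or headers used here. In the first array set 91.572% of probe sets had a median ratio of 1, in the second 0.0224%. The ratios were whole multiples of a common step, so signals in steps of 0.1 were derived for 22269 probe sets (99.9372%). The search for each probe set's divisor was checked on simulated ratios with known array factors, divided by medians as in the first set only. The derived signals were the main scale, since they put both sets on 1 scale, and the deposited ratios were an alternative.

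Each array was scaled to 1 common median before log2(signal + 16) was taken. Probe sets above the 40th percentile of at least 2 arrays were kept (16316), with the brightest per gene. Names came from GEO's platform annotation: 19071 probe sets had 1 gene, 1043 several and 2169 none. Another 3 probe sets of HSP90B1 and PHGDH name further genes and were left out. Some probe sets, HSP90B1 and PDIA6 among them, have the suffix for cross-matching probes, so related transcripts may add to them.

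limma 3.58.1 (R 4.3.3) was fitted to the 14 strong and weak lines with 4 group means, and to the 4 ploidy arrays with line of origin as block, since each pair shares its line. Benjamini-Hochberg adjustment ran over 9550 genes, at a threshold of 0.05. The fits had 10 and 1 residual degrees of freedom. Lines serve as replicates, so p-values measure the spread between lines of 1 parental origin, and the number of arrays limits the precision. Alternatives changed the scaling, pseudocount, filter, probe set choice, arrays in the fit or replicate block, or left out each line. All members past the threshold were named, filled to 8 by size, and in the ploidy pairs up to 6 a direction. The members, lists and tests were chosen with earlier results of these data known. A motif match is a match of letters only.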

Additional observations from a re-analysis of the deposited data

Results flagged for a closer look

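Single lines stood apart from the rest of their group of 4 in 3 of 78 group-by-member checks, and chance gives about 1 in 20. SLC7A5 in strong bone line 2269 read 2745.0, far below the other 3 strong bone lines at 4836 to 5420.5, yet above every weak bone line. TRIB3 in strong lung line 4142 read 1326, against 494 to 559 in the other 3. PSPH in the same line read 495.4, against 823.5 to 843 in the others.

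For 3 of 39 members the strong-against-weak difference itself differed between the organs by limma, against 11.8% of all genes. Lung minus bone was -2.58 for SLC7A5 (adjusted p = 0.00175), -0.86 for CREB3L2 (adjusted p = 0.0318) and -1.12 for EIF2AK3 (adjusted p = 0.0398). CREB3L2 lost the call in 10 of 24 alternatives and EIF2AK3 in 12. Organ and array set coincide here and cannot be told apart as sources of such a difference.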

How the results depend on the processing

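Of the members called between the bone lines, SLC7A5, SLC7A11 and SLC3A2 held under all 18 alternatives run, as did PHGDH and CREB3L2 between the lung lines, and the SLC7A5 difference between organs held under all 24. Leaving out 1 line at a time gave 4 to 11 bone calls higher, against 9 with all lines. Over all genes these fits gave 339 to 828 calls higher, against 653. Bone calls lower, 0 in the fit reported, came to 1 (PDIA4) with quantile normalization, trimmed-mean scaling, a pseudocount of 64, the stricter filter or only the bone lines. Over all genes the bone calls lower then numbered 737, 803, 552, 536 (of 6276) and 476 in that order, against 461. Lung calls higher, 1 in the fit reported, came to 5 with quantile normalization, 4 with the trimmed mean, 2 with a pseudocount of 64, the stricter filter or the probe set chosen by detection, and 1 to 4 with a line left out, 4 being without SCP6. Over all genes the lung calls higher numbered 575 with quantile normalization and 528 with the trimmed mean, against 325. They numbered 378 with a pseudocount of 64, 367 of 6276 with the stricter filter and 306 with the probe set by detection. With a line left out they numbered 189 to 357, 357 being without SCP6. Lung calls lower, 2 in the fit reported, came to 1 without a filter, with 19 arrays in 1 fit or with the lung lines alone, to 4 with the stricter filter, and to 1 to 5 with a line left out. Over all genes the lung calls lower numbered 441 of 11962 without a filter, 465 with 19 arrays in 1 fit and 264 with the lung lines alone. They numbered 649 of 6276 with the stricter filter and 273 to 691 with a line left out, against 529. Calls for the difference between organs, 3 in the fit reported, came to 5 with quantile normalization or the trimmed mean (3 of them higher in lung), 6 with a pseudocount of 64 or the probe set by detection, 8 with the stricter filter, and 1 to 7 with a line left out. Over all genes 460 were higher and 665 lower in the fit reported, 739 and 702 with quantile normalization, and 704 and 671 with the trimmed mean. There were 517 and 763 with a pseudocount of 64, and 422 and 633 with the probe set by detection. The stricter filter gave 501 and 782 of 6276, and leaving a line out 298 to 544 higher and 468 to 934 lower. The trimmed mean moved the median of all genes for that difference to 0.103, against -0.0294. In the ploidy comparison the paired fit with line of origin as block called 0 members, the fit with no replicate block also 0, and the stricter filter 2 (ATF6 and SLC7A11), where 2 genes were higher and 24 lower of 6276 and the prior degrees of freedom became infinite. No called member changed sign under the alternatives run. The stricter filter tests fewer genes (6276). For the other changes the cause was not tested. Dim signals limit STC2, which was at or below the dim limit on 9 of 19 arrays, DNAJC3, on 4, PHGDH, on 2, and ATF6, on 1.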

Other observations

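Compared with the lines they came from, the ploidy sublines of both origins had higher HERPUD1, an ER membrane protein of the degradation pathway, a gene picked here after its values were seen. It read 3165 and 1825 in the hyper-ploid sublines of 1833 and 4175, 2566 and 1882 in the modal-ploid sublines, and 971 and 809.7 in the lines 1833 and 4175 themselves. The log2 differences from the line of origin were 1.69 and 1.16 for the hyper-ploid and 1.39 and 1.20 for the modal-ploid sublines. CREB3L2 was also higher in both sublines of 4175, at 2033 and 1671 against 669 in the line itself. The ploidy sublines had the lowest spike-in signals of the series (9.246 to 9.601, against 11.09 to 11.37 in the parental and bone lines). Before scaling, their trimmed-mean signals were 321 to 358.5, against 495.5 to 496.4 on the other arrays. The part of these differences in the values was not tested.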
